A study of Caenorhabditis elegans with 6 samples.

Results

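The 34 genes described here encode the machinery of chemical synapses: 18 act in the release of synaptic vesicles, 14 make, load or take up neurotransmitters, and 2 mark neurons in general. They were chosen by gene symbol, each read from its brightest probe set (highest mean of 6 arrays) among those with 1 symbol, and all 34 of the 17118 genes measured this way were found. The samples were whole Caenorhabditis elegans at L4, the stage before adulthood, grown as synchronized cultures at 25 °C on OP50 bacteria. One group carried the mutation alg-1(gk214), labelled alg-1(-), and the other was N2, labelled wildtype, with 3 arrays each from replicates that the labels call independent. Both are single strains, and no other allele or treatment is named. ALG-1 is an Argonaute protein that works with microRNAs, and the study asked which genes it targets.

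At a chemical synapse, an action potential opens presynaptic calcium channels, and calcium triggers the fusion of primed vesicles with the membrane through SNARE proteins. Priming factors and active zone scaffolds hold vesicles ready, and endocytosis recovers their membrane afterwards. In the worm most neurons share this machinery, whereas the enzymes and transporters for acetylcholine, GABA, glutamate and the biogenic amines are each made in particular neurons. Muscle, intestine, epidermis and germline make up most of the animal, so whole-worm RNA holds neuronal transcripts as a minor part.

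Values are log2 array signals, and each change is the alg-1(-) mean minus the wild type mean with its standard error (SE). A gene is said to have risen or fallen where limma, fitted over 22548 probe sets, gave a Benjamini-Hochberg adjusted p under 0.05. By this rule 14.4% of all genes rose and 20.1% fell, 34.6% in all, and the median change over all genes was -0.056. Correlations between arrays across probe sets were 0.998 within alg-1(-), 0.994 to 0.996 within wild type and 0.968 to 0.976 between groups. Wild type replicate 3 stood apart in its GAPDH control probe sets, whose 3′ minus 5′ difference was -0.58 against -0.23 to -0.14 on the other 5 arrays. The highest alg-1 probe set was lower in the mutant by 0.73 log2 (SE 0.085, limma adjusted p = 0.000245). Of its other probe sets, one also fell (-0.62, adjusted p = 0.00977), whereas the groups overlapped on the last (-0.10, adjusted p = 0.748). The place of these probes relative to the deletion was not known here.

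Many genes of vesicle release were higher in the mutant, while no transmitter gene passed the test in either direction. Of the 18 release genes, 9 rose (50%, beside 14.4% of all genes) by 1.18-fold to 1.71-fold and 0 fell, and their median change was 0.279. Of the 14 transmitter genes, each read from its brightest probe set, 0 rose and 0 fell, also at an unadjusted limma p under 0.05. Their median change was 0.003. Signals above the median of all probe sets were found for 16 release genes and 9 transmitter genes. In a fit of such probe sets alone, 10 of the 16 and 0 of the 9 rose, beside 23.1% of all genes fitted. The difference between these classes was not tested. Over all 34 genes, 9 rose (26.5%), 0 fell (1 at an unadjusted p under 0.05, aex-3), and the median change was 0.119. The 9 that rose were unc-13, unc-2, egl-19, syd-2, sng-1, unc-11, unc-10, rab-3 and unc-26. Without alg-1(-) replicate 1, where 10.7% of all genes rose, 5 of them passed, unc-13, unc-2, egl-19, syd-2 and sng-1. The same 5 passed at an adjusted p under 0.01, where 9.66% of all genes rose. Without wild type replicate 3, where 14.8% of all genes rose, all 9 passed, together with unc-18 and eat-4. RNA of whole worms cannot tell more transcript per neuron from a larger share of neuronal RNA in the sample.

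**Figure D1:**
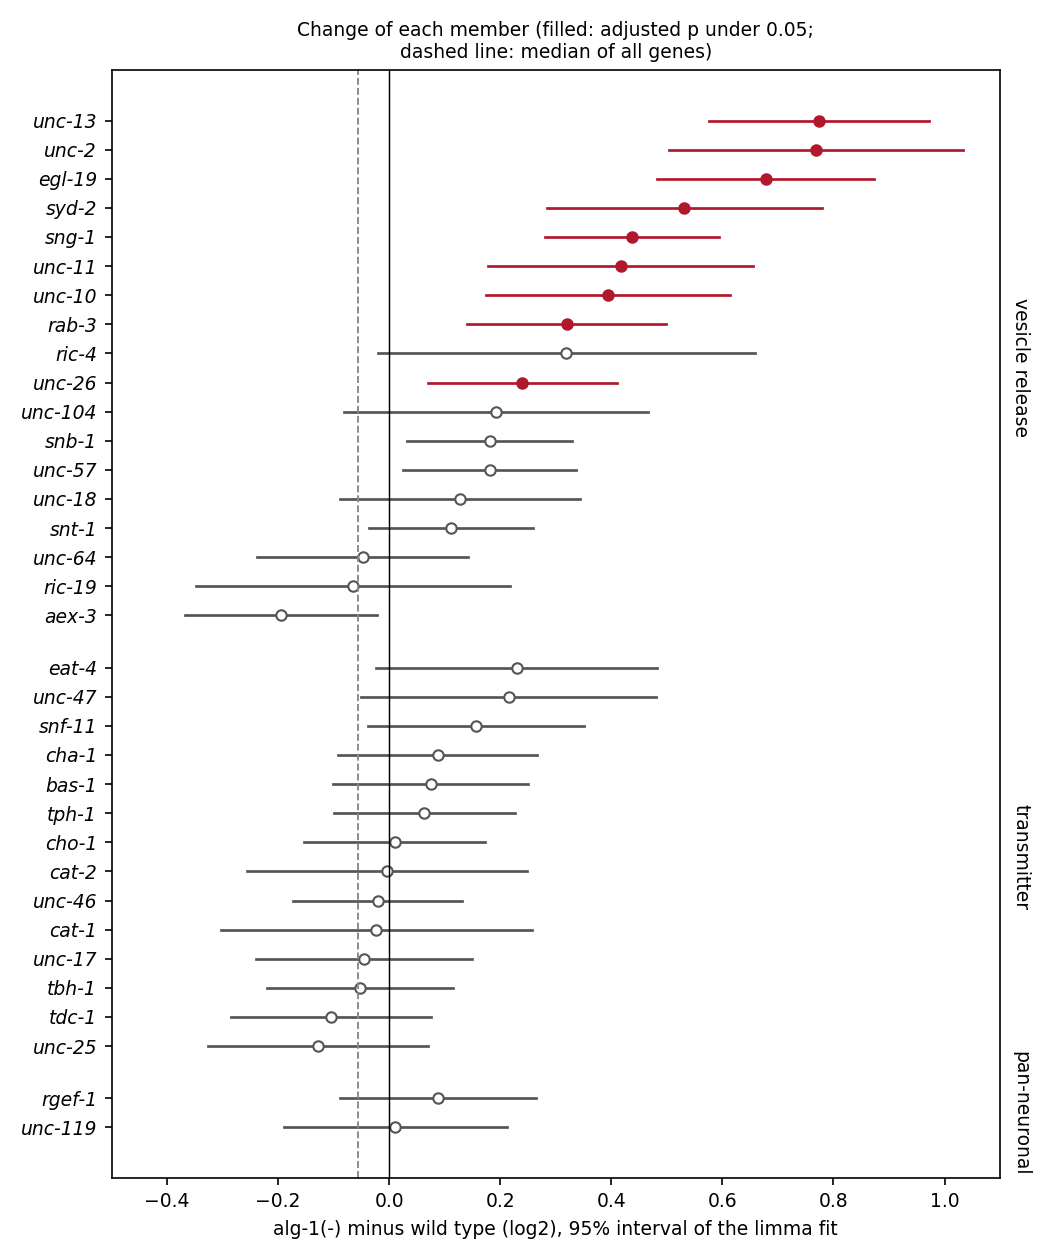
Change of each of the 34 genes, alg-1(-) minus wild type on the log2 scale, with the 95% interval of the limma fit. Filled red points passed adjusted p under 0.05 and open points did not; the dashed line is the median of all genes at -0.056. The 9 filled points all lie among the vesicle release genes, and every transmitter interval spans 0.

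All 3 mutant arrays lay above all 3 wild type arrays for 12 of the 18 release genes and for 0 of the 14 transmitter genes. Among all genes 19.1% were separated in this direction and 29.6% in the opposite one. The 3 further release genes with this separation, snb-1, snt-1 and unc-57, did not pass the test. One release gene, aex-3, lay lower on all mutant arrays. Averaged over the 18 release genes, the mutant arrays read 8.10, 8.01 and 8.07, and those of the wild type 7.77, 7.77 and 7.75. Averaged over the transmitter genes they read 6.64, 6.65 and 6.68 against 6.61, 6.58 and 6.69. The first set of averages did not overlap between the groups, and the second did. The median SE of a change was 0.087 for release genes and 0.083 for transmitter genes.

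Among the fusion proteins the largest rise was that of unc-13, whose protein primes docked vesicles for release. The mutant arrays read 8.50, 8.32 and 8.45, and the wild type arrays 7.52, 7.65 and 7.77. Every mutant value lay well above every wild type value. The change of 0.77 (SE 0.087, limma adjusted p = 0.000221) was a 1.71-fold rise. The other unc-13 probe sets rose by 0.73 and 0.88 (adjusted p = 0.000848 and 6.41e-05). All of them carry the endings _s_at or _x_at, which Affymetrix gives to probe sets whose probes match several transcripts.

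The SNARE genes themselves differed less. The vesicle SNARE synaptobrevin, snb-1, read 10.75, 10.76 and 10.76 against 10.53, 10.59 and 10.61. All mutant values were the higher ones, but the change of 0.18 (SE 0.065) did not pass (adjusted p = 0.062). A second snb-1 probe set rose by 0.28 (adjusted p = 0.0277), and snb-1 also passed after median centring (0.192, adjusted p = 0.0477). Syntaxin, unc-64, the SNARE of the plasma membrane, read 8.12, 7.89 and 8.10 against 8.09, 8.02 and 8.15. Its groups overlapped, and the 95% interval of its change ran from -0.24 to 0.14. The gene of the remaining SNARE of the complex, ric-4, read 9.58, 9.28 and 9.43 against 9.27, 9.32 and 8.75. Here the low value of wild type replicate 3 set most of the difference of 0.32 (SE 0.15, adjusted p = 0.137), which was 0.14 without that array.

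The genes for the regulators of fusion gave different answers by probe set. For unc-18, whose protein binds syntaxin and is needed for release, the representing probe set differed by 0.13 (SE 0.095, adjusted p = 0.346) and a second one rose by 0.36 (adjusted p = 0.040). For snt-1, which encodes the calcium sensor synaptotagmin, the representing probe set read 7.45, 7.46 and 7.48 against 7.32, 7.39 and 7.34. Although every mutant value was higher, this change of 0.11 (SE 0.065) missed the threshold (adjusted p = 0.23). On the other snt-1 probe set there was a rise of 0.38 (adjusted p = 0.0412).

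**Figure D2:**
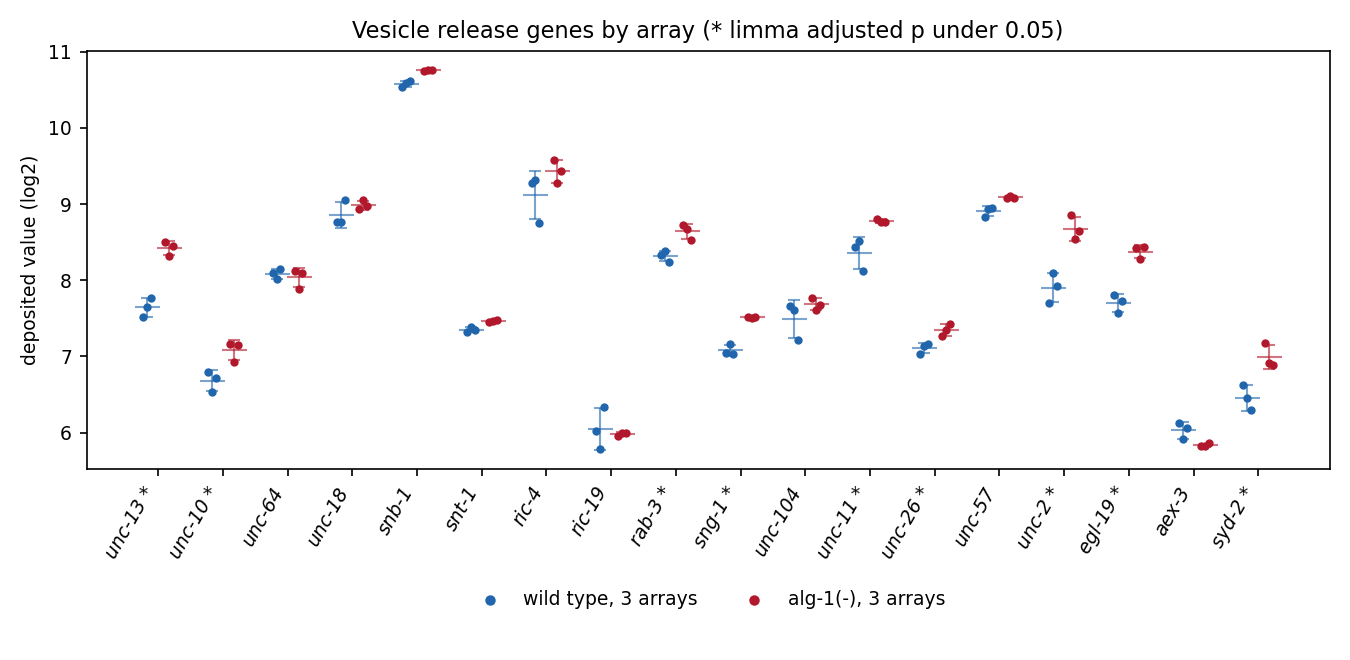
Deposited log2 values of the 18 vesicle release genes on each array, wild type in blue and alg-1(-) in red, with the mean and SD of 3 arrays; an asterisk marks adjusted p under 0.05. The mutant arrays all lie above the wild type arrays for 12 genes, unc-13, unc-2, egl-19 and sng-1 among them, and all below for aex-3. The single low wild type points of ric-4, unc-104 and unc-11 are wild type replicate 3.

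Both calcium channel genes in the group rose, beside 14.4% of all genes. The gene unc-2 encodes the main presynaptic calcium channel subunit of the worm. Mutant arrays read 8.85, 8.54 and 8.64, and wild type arrays 7.70, 8.09 and 7.92. With no overlap, the rise was 0.77 (SE 0.12, adjusted p = 0.00113), or 1.70-fold. A second unc-2 probe set, of lower signal, rose by 1.05 (SE 0.10, adjusted p = 0.000101), while the remaining ones differed by -0.12 and 0.16 and did not pass. The L-type channel gene egl-19, best known from muscle and also used in neurons, read 8.42, 8.28 and 8.43 against 7.81, 7.57 and 7.73. It changed by 0.68 (SE 0.086, adjusted p = 0.000416), 1.60-fold, again without overlap. Its second probe set differed by 0.29 (SE 0.16, adjusted p = 0.202). Of 16 muscle markers, 0 rose and 5 fell (31.2%, beside 20.1% of all genes). Above the median signal lay 15 of them, and there 28.5% of all genes fell in a separate fit. The part of muscle in the egl-19 value was not tested.

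Of 7 genes for active zone scaffolds, vesicle proteins and vesicle transport, 4 rose (57.1%, beside 14.4% of all genes). The scaffold gene syd-2 (liprin-alpha), needed to organise active zones, read 7.17, 6.91 and 6.89 against 6.63, 6.45 and 6.29. The change was 0.53 (SE 0.11, adjusted p = 0.00548), and its other probe set rose by 0.95 (SE 0.17, adjusted p = 0.00254). The RIM gene unc-10, whose protein links vesicles to the active zone, read 7.16, 6.93 and 7.15 against 6.80, 6.53 and 6.72, with no overlap. It rose by 0.39 (SE 0.097, adjusted p = 0.0128), but its other, weaker probe sets differed by 0.16 and 0.26 without passing, and it was lost without alg-1(-) replicate 1 (adjusted p = 0.0584) or 3 (adjusted p = 0.0587).

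The vesicle membrane gene sng-1 (synaptogyrin) was the most even of those that rose. It read 7.52, 7.51 and 7.52 against 7.05, 7.16 and 7.03, a change of 0.44 (SE 0.069, adjusted p = 0.00138). The small GTPase gene rab-3, whose protein sits on synaptic vesicles, read 8.72, 8.67 and 8.53 against 8.33, 8.38 and 8.24. It rose by 0.32 (SE 0.079, adjusted p = 0.013), and a second probe set rose by 0.48 (adjusted p = 0.00958). The call of rab-3 was lost without alg-1(-) replicate 1 (adjusted p = 0.0614) or 2 (adjusted p = 0.0508).

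The 3 others of this group did not pass. The exchange factor for RAB-3, encoded by aex-3, was the single release gene with lower values on every mutant array, 5.82, 5.82 and 5.86 against 6.12, 5.91 and 6.06. Its change was -0.20 (SE 0.076, adjusted p = 0.0802), it passed without wild type replicate 2 (-0.255, adjusted p = 0.0401), and its other probe set, at low signal, differed by 0.13. The kinesin gene unc-104, whose motor carries vesicle precursors down the axon, differed by 0.19 (SE 0.12, adjusted p = 0.261), and by 0.05 without wild type replicate 3. The gene ric-19, which acts in dense-core vesicle maturation, differed by -0.07 (SE 0.12, adjusted p = 0.732).

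Among the endocytosis genes 2 of 3 passed as higher, by small margins, beside 14.4% of all genes. The clathrin adaptor gene unc-11 read 8.81, 8.77 and 8.76 against 8.44, 8.52 and 8.12, a change of 0.42 (SE 0.11, adjusted p = 0.0145). This rise belongs to 1 of its 10 probe sets, the one with the highest signal. Of the remaining 9, 8 differed by -0.09 to 0.12 without passing and 1 fell by 0.36 (adjusted p = 0.0154). The mean over all unc-11 probe sets differed by 0.015 (adjusted p = 0.89), and without alg-1(-) replicate 1 the representing probe set did not pass (adjusted p = 0.0564). The synaptojanin gene unc-26, a lipid phosphatase that uncoats recovered vesicles, read 7.27, 7.35 and 7.42 against 7.03, 7.13 and 7.16. Its rise of 0.24 (SE 0.075, adjusted p = 0.0364) did not pass when any array other than wild type replicate 3 was left out (adjusted p from 0.0532 to 0.137). It also missed the threshold with quantile normalization (adjusted p = 0.0762), with an intensity trend and robust prior (adjusted p = 0.0534) and as the mean over its probe sets (adjusted p = 0.0612), and so passed in 7 of 16 alternatives. The endophilin gene unc-57, a partner in the same step, read 9.08, 9.10 and 9.08 against 8.83, 8.94 and 8.95. It was higher on every mutant array but did not pass (0.18, SE 0.069, adjusted p = 0.0737).

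**Figure D3:**
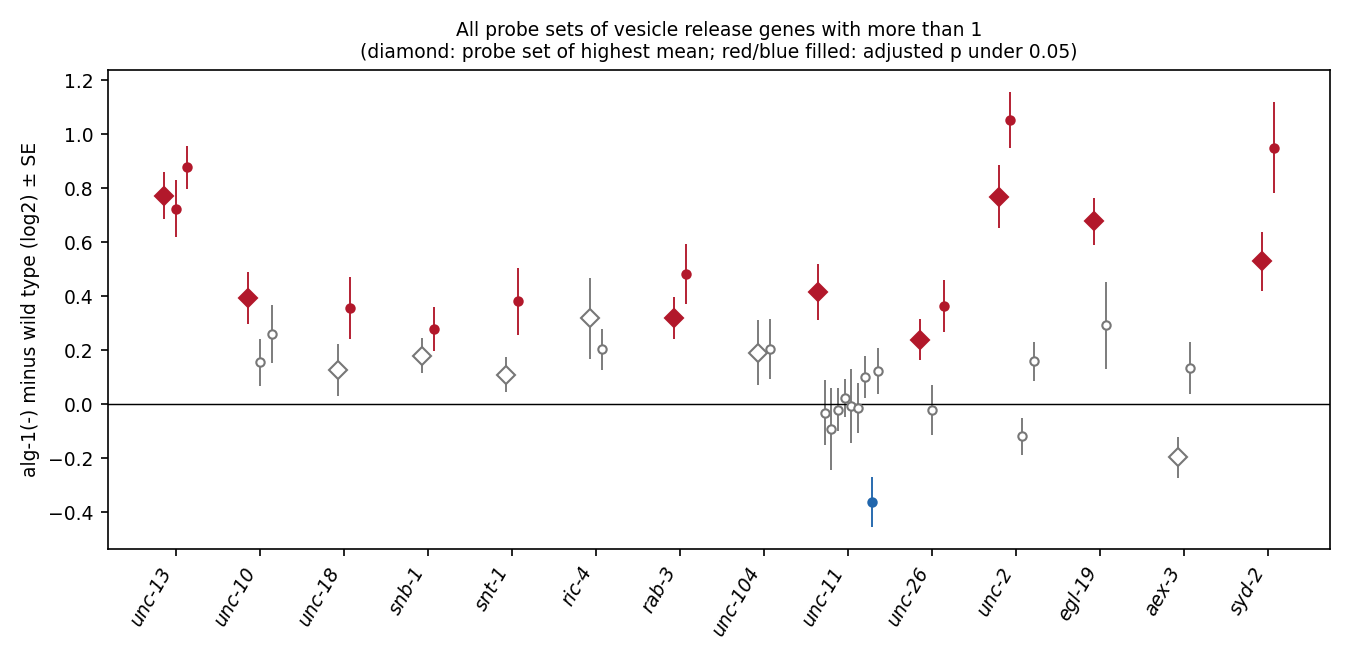
Change of every single-symbol probe set of the 14 release genes that have more than 1, alg-1(-) minus wild type on the log2 scale, with bars of 1 SE. Diamonds are the probe sets of highest mean that represent the genes; filled symbols passed adjusted p under 0.05, red higher and blue lower. All 3 unc-13 probe sets and both of rab-3 and syd-2 rose, whereas unc-11 rose on 1 of 10.

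Over all members there were 68 probe sets, 34 of them beyond those that represent the genes. Of these 34, 9 rose and 1 fell, and 22 had the sign of the representing one. For the 9 genes that rose, 21 further probe sets gave 13 changes of the same sign, 6 of which passed as higher. For the 25 genes that did not pass, 13 further probe sets gave 3 rises, those of unc-18, snb-1 and snt-1. None of the further probe sets of the transmitter genes passed. A probe set listed with the unc-26 symbol more than once, left out of the fit by gene, differed by 0.11 (adjusted p = 0.318).

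Acetylcholine is the main excitatory transmitter of the worm's motor system, and its genes showed no change that passed. The vesicular transporter gene unc-17 read 7.62, 7.74 and 7.72 in alg-1(-), and 7.71, 7.63 and 7.89 in N2. The groups overlapped, and the change was -0.05 with a 95% interval from -0.24 to 0.15. A second unc-17 probe set, of similar signal, was lower on all mutant arrays. It differed by -0.17 (limma unadjusted p = 0.0376, adjusted p = 0.0932), and the remaining unc-17 probe set by 0.07 with overlap. The gene cha-1, for the enzyme that makes acetylcholine, read 6.56, 6.43 and 6.53 against 6.36, 6.36 and 6.53, with an interval from -0.09 to 0.27. Their gene spans overlap in the RefSeq annotation (assembly WBcel235), so probe sets of one may read transcripts of the other. The choline transporter gene cho-1, whose product takes choline back into the terminal, read 6.36, 6.44 and 6.42 against 6.38, 6.34 and 6.48. It differed by 0.01 (SE 0.072, adjusted p = 0.936).

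The GABA genes also overlapped between groups. The gene unc-25, for the enzyme that makes GABA from glutamate, read 7.79, 7.61 and 7.73 against 7.92, 7.70 and 7.89. Its change of -0.13 (SE 0.087, adjusted p = 0.3) was the lowest of the 14. The vesicular GABA transporter gene unc-47 read 5.87, 6.01 and 6.15 against 5.81, 5.57 and 5.99, which gave 0.21 (SE 0.12, adjusted p = 0.197). The gene unc-46, for a protein that sorts this transporter to vesicles, differed by -0.02 (SE 0.067, adjusted p = 0.845). The uptake transporter gene snf-11 read 8.30, 8.21 and 8.29 against wild type values whose mean was 8.11 ± 0.14 (SD, n = 3), with a change of 0.16 (SE 0.086, adjusted p = 0.199).

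For glutamate the group holds eat-4, the vesicular glutamate transporter gene, which had the largest positive difference of the transmitter genes. It read 6.02, 5.93 and 5.95, against 5.49, 5.77 and 5.95 in N2. One wild type array, replicate 3, lay within the mutant range, and the change of 0.23 (SE 0.11) did not pass (adjusted p = 0.15). Without that array eat-4 passed (0.335, adjusted p = 0.0307). The second eat-4 probe set differed by 0.09 (SE 0.081, adjusted p = 0.443).

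**Figure D4:**
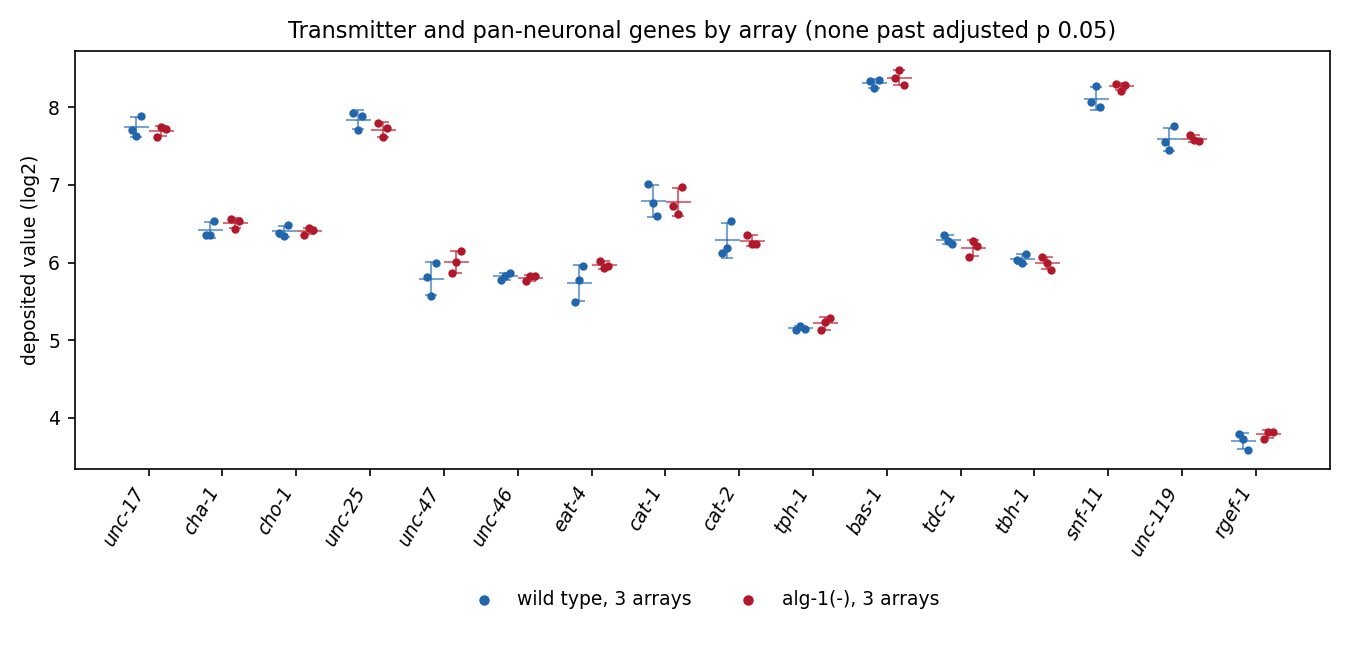
Deposited log2 values of the 14 transmitter genes and of unc-119 and rgef-1 on each array, wild type in blue and alg-1(-) in red, with the mean and SD of 3 arrays. The groups overlap for all 16 genes, and rgef-1 lies near the lower end of all signals.

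The 6 genes of the biogenic amines did not pass either. Their changes ran from -0.105 to 0.075, and the widest 95% intervals of the 6 reached -0.303 and 0.257. The vesicular monoamine transporter gene cat-1, which loads dopamine, serotonin, tyramine and octopamine, read 6.73, 6.62 and 6.97 against 7.01, 6.77 and 6.60. Its spread over the mutant arrays (SD 0.18) was the widest of any member. For dopamine, the tyrosine hydroxylase gene cat-2 read 6.36, 6.24 and 6.24 against 6.12, 6.19 and 6.54, a difference of 0.00 (SE 0.11, adjusted p = 0.984). For serotonin, the tryptophan hydroxylase gene tph-1 read 5.13, 5.23 and 5.29 against 5.13, 5.18 and 5.15, which gave 0.06 (SE 0.072, adjusted p = 0.548).

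The decarboxylase gene bas-1, which serves dopamine and serotonin, differed by 0.07 (SE 0.077, adjusted p = 0.506). The tyramine and octopamine enzymes are encoded by tdc-1, a tyrosine decarboxylase, and tbh-1, a tyramine hydroxylase. The first differed by -0.11 (SE 0.080, adjusted p = 0.356), and the other by -0.05 (SE 0.074, adjusted p = 0.633). The signals of tph-1, tbh-1, unc-46, unc-47 and eat-4 lay below the median of all probe sets, where array changes tend to be compressed. Across the 14 transmitter genes the 95% intervals together ran from -0.326 to 0.483, so a rise above 1.40-fold or a fall below 0.797-fold lay outside each of them.

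The genes unc-119 and rgef-1 are used as markers of nearly all neurons. The values of unc-119 were 7.64, 7.58 and 7.56 against 7.55, 7.45 and 7.75, with a change of 0.01 and an interval from -0.19 to 0.21. The rgef-1 probe set lay at the 3.9th percentile of all signals, and its difference of 0.09 (SE 0.078, adjusted p = 0.431) is close to the lower limit of what the array reads. Of 8 neuron markers, 2 rose (25%, beside 14.4% of all genes) and 0 fell, with a median of 0.135. These 8 also count unc-64, ric-19, snb-1, ric-4, sng-1 and rab-3 and so are all members. The 2 that rose were sng-1 (0.44) and rab-3 (0.32), already counted among the release genes. Without passing, ric-4 differed by 0.32, snb-1 by 0.18, unc-64 by -0.05 and ric-19 by -0.07. The mean level of the 8 was 7.75, 7.69 and 7.72 in alg-1(-) against 7.58, 7.56 and 7.56, without overlap. It is thus not a measure apart from the release genes.

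The direction of the smaller changes depended on the scaling of the arrays. The bacterial hybridization controls, RNAs added before hybridization, were lower on average on the mutant arrays. Centring on them raised the median change of all genes from -0.056 to 0.082. With this centring 20.6% of all genes rose and 10% fell, so that 67.3% of calls were higher against 41.7% as deposited. Then 12 release genes rose, unc-18, snb-1 and unc-57 being added, and 2 transmitter genes, unc-47 (0.353, adjusted p = 0.0383) and eat-4 (0.368, adjusted p = 0.0216). Such centring shifts every gene by the same amount, so it leaves differences between genes as they were. As deposited, the median of the release genes lay 0.335 above that of all genes, and that of the transmitter genes 0.059 above it; with quantile normalization these were 0.265 and 0.022.

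Other genes of the synapse, listed by function but with earlier results of these data known, were counted in the same way. Of 47 further genes of release, active zones and endocytosis, 14 rose (29.8%) and 4 fell (8.51%), beside 14.4% and 20.1% of all genes. The list's median change was 0.155, and 38 of its genes lay above the median signal. There, in a separate fit, 23.1% of all genes rose. The rises with the smallest p were those of aps-2 (0.60), a clathrin adaptor subunit gene, nlg-1 (0.75), for the synaptic adhesion protein neuroligin, syd-1 (0.52), an active zone assembly gene, and cla-1 (0.43), for the scaffold clarinet. Their limma adjusted p-values were 0.000835, 0.000944, 0.00178 and 0.00184. The 4 that fell, named after their values were seen, were snt-5 (-0.35) and snb-5 (-0.36), relatives of synaptotagmin and synaptobrevin, the endocytic scaffold gene itsn-1 (-0.33) and the G protein regulator gene ric-8 (-0.41). None of these 4 fell with centring on the hybridization controls. Without alg-1(-) replicate 3, 9 rose and 1 fell; without alg-1(-) replicate 1, 1 fell, and without wild type replicate 2 or 3, 2 fell.

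Among 15 genes for dense-core vesicles and neuropeptide processing, the other route of secretion from neurons, 7 rose and 1 fell. These were 46.7% and 6.67%, beside 14.4% and 20.1% of all genes, and the list's median was 0.241. Above the median signal lay 12 of the 15, and there 23.1% of all genes rose in a separate fit. The proprotein convertase gene kpc-1 rose by 0.79 (adjusted p = 0.00135), and egl-3, which encodes a convertase of neuropeptides, by 0.44 (adjusted p = 0.00191). The carboxypeptidase gene egl-21 rose by 0.40 (adjusted p = 0.00219) and rund-1, which acts in dense-core vesicle formation, by 0.54 (adjusted p = 0.000923). The fall, named after its value was seen, was that of unc-31 (-0.28, adjusted p = 0.0366), a factor for dense-core vesicle release. Its probe set lay at the 15.8th percentile of signal, and it did not pass with centring on the hybridization controls (adjusted p = 0.372) or without any 1 array other than wild type replicate 2.

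Among 21 calcium, sodium-leak and potassium channel genes, 6 rose (28.6%, beside 14.4% of all genes) and 0 fell, with a median of 0.140. Above the median signal lay 14 of the 21, and there 23.1% of all genes rose in a separate fit. The genes that rose included nlf-1 (0.62, adjusted p = 0.00153), unc-80 (0.39, adjusted p = 0.00398) and unc-79 (0.34, adjusted p = 0.0244), which all act with the sodium-leak channel of neurons. A further one was unc-93 (0.53, adjusted p = 0.00297), a potassium channel regulator in muscle. The count was 3 without alg-1(-) replicate 1 or 2. The mean over all unc-79 probe sets differed by 0.009 (adjusted p = 0.941), and unc-79 did not pass without any 1 mutant array or wild type replicate 1.

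Of 37 genes for other steps of transmitter metabolism, 5 rose (13.5%, beside 14.4% of all genes) and 14 fell (37.8%, beside 20.1%), with a median of -0.124. Above the median signal lay 26 of the 37, and there 28.5% of all genes fell in a separate fit. The choline kinase gene ckb-2 went from 9.86 ± 0.25 in the wild type to 7.64 ± 0.04 in the mutant (SD, n = 3), a change of -2.22 (SE 0.12, limma adjusted p = 2.55e-06). The glutamine synthetase gene gln-2 fell by 1.04 (SE 0.11, adjusted p = 0.000143). The 37 include 4 genes for enzymes that make and recycle tetrahydrobiopterin, the cofactor of the hydroxylases encoded by cat-2 and tph-1. Of these 4, 3 fell (75%, beside 20.1% of all genes), and the pathway as a set was not tested. Among them, cat-4 fell by 1.05 (SE 0.12, adjusted p = 0.000265) and qdpr-1 by 0.86 (SE 0.099, adjusted p = 0.000246). The same pathway's pcbd-1 fell by 0.65 (adjusted p = 0.00132) and ptps-1 differed by -0.23 (adjusted p = 0.329), both named after their values were seen. These enzymes are also made outside neurons, the epidermis included. With centring on the hybridization controls 9 of the 37 fell and the median was 0.014. Without alg-1(-) replicate 1 or wild type replicate 1, 3 rose.

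Most receptor genes had signals below the median of all probe sets. Of 40 acetylcholine receptor and receptor assembly genes, 10 rose (25%, beside 14.4% of all genes) and 2 fell (5%, beside 20.1%). The list's median change was 0.065. The rises were led by acc-4, an acetylcholine-gated channel gene (0.77, adjusted p = 0.00211), deg-3 (0.44, adjusted p = 0.00336) and molo-1 (0.58, adjusted p = 0.00382). By contrast, acr-7 fell by 0.29 (adjusted p = 0.0118). The rises numbered 5 without alg-1(-) replicate 1 and 4 without alg-1(-) replicate 3. There was 1 fall without any 1 array other than wild type replicate 1. Leaving out probe sets that end in _s_at or _x_at, deg-3 differed by 0.177 (adjusted p = 0.162). The fall of acr-7 did not pass with centring on the hybridization controls (adjusted p = 0.254).

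Of 29 GABA and glutamate receptor genes, 8 rose (27.6%, beside 14.4% of all genes) and 1 fell (3.45%, beside 20.1%). The list's median change was 0.086. The AMPA-type receptor gene glr-1 rose by 0.71 (adjusted p = 0.000493), its accessory protein gene sol-1 by 0.71 (adjusted p = 0.000469) and the muscle GABA receptor gene unc-49 by 0.63 (adjusted p = 0.00315), whereas the glutamate-gated chloride channel gene glc-2 fell by 0.65 (adjusted p = 0.00054). The unc-49 probe set without the _s_at ending differed by 0.031 (adjusted p = 0.774), 5 genes of this list rose without alg-1(-) replicate 3, and 2 fell without alg-1(-) replicate 2. Of 18 amine receptor genes, 5 rose (27.8%) and 1 fell (5.56%), with a median of 0.136. The rises included those of ser-4 (0.57), tyra-2 (0.48), dop-5 (0.44) and mod-1 (0.32). Without alg-1(-) replicate 1 or 3 or wild type replicate 2, 3 of them rose. The remaining probe set of ser-4, without the _s_at ending, went the other way, at -0.324 (adjusted p = 0.0525). The fall was that of ser-1 (-0.33, adjusted p = 0.0296), named after its value was seen, which did not pass without any 1 array other than wild type replicate 1.

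Of 38 genes for transcription factors that set neuron and transmitter identity, 7 rose (18.4%) and 5 fell (13.2%), near the 14.4% and 20.1% of all genes, with a median of 0.065. The zinc finger gene sem-4 rose by 0.82 (adjusted p = 0.000965) and nhr-67 by 0.43 (adjusted p = 0.00254). By contrast, lin-11, a LIM homeobox gene also used in the vulva, fell by 0.76 (adjusted p = 0.00241) and ham-1 by 0.58 (adjusted p = 0.000244). Without alg-1(-) replicate 2, 4 rose. There were 3 falls without alg-1(-) replicate 1 or 2 or wild type replicate 2 or 3, and 2 without alg-1(-) replicate 3. With centring on the hybridization controls 13 rose and 2 fell.

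**Figure D5:**
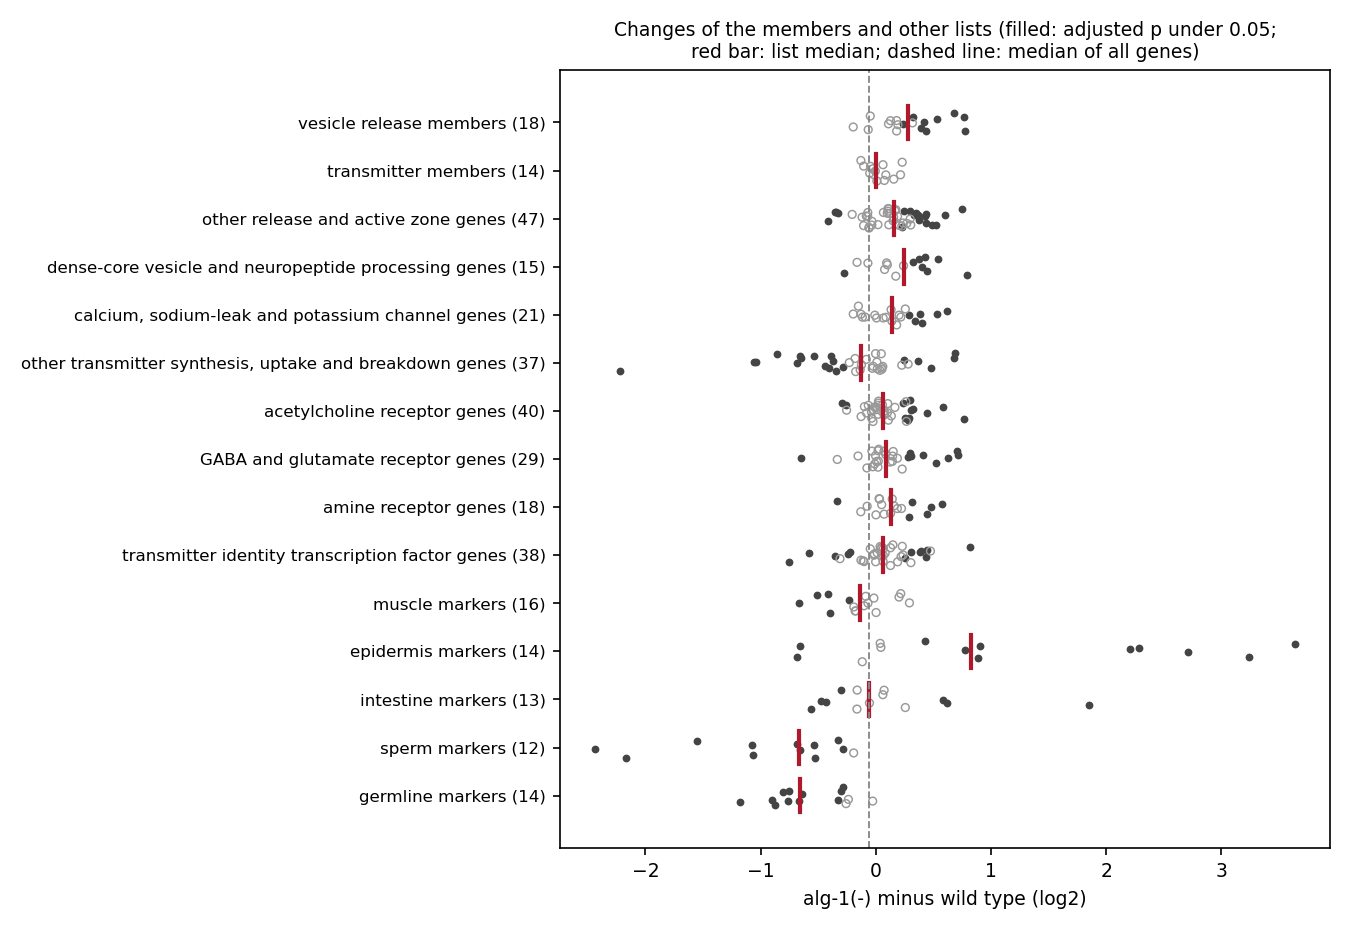
Change of each measured gene of the members and of the other lists, alg-1(-) minus wild type on the log2 scale, with the number of genes in brackets. Filled points passed adjusted p under 0.05, red bars are list medians (0.279 for vesicle release, 0.003 for transmitter genes) and the dashed line is the median of all genes. The transmitter genes hold no filled point, and the sperm and germline markers lie almost wholly below 0.

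Markers of other tissues also differed between these samples, and their part in the neuronal changes was not tested. Of 12 sperm markers 11 fell (91.7%), and of 14 germline markers 11 fell (78.6%), beside 20.1% of all genes. The sperm and germline medians were -0.670 and -0.654. The mean level of the sperm markers was 4.86 to 4.92 in the mutant and 5.70 to 5.92 in the wild type, and that of the germline markers was 8.19 to 8.29 against 8.77 to 8.83. Of 14 epidermis markers 9 rose (64.3%, beside 14.4% of all genes) and 2 fell (14.3%). The mean level of the epidermis markers was 9.49 to 9.61 against 8.41 to 8.46. These markers went different ways, from wrt-2 (3.64), sqt-1 (3.24) and rol-6 (2.71) to grd-10 (-0.65) and vab-10 (-0.68). Among them, elt-1 (0.04), ajm-1 (0.04) and elt-3 (-0.12) did not pass. Of 13 intestine markers 3 rose (23.1%) and 4 fell (30.8%), with mean levels of 10.07 to 10.10 against 9.94 to 10.05. Their median change was -0.055, beside -0.056 for all genes, and their largest change was that of cpr-6 (1.85), which weighs on these means. The mean level of the muscle markers was 10.27 to 10.31 against 10.38 to 10.49, and 3 of them fell with centring on the hybridization controls. Most markers other than those of sperm lay above the median signal, where 23.1% of all genes rose and 28.5% fell in a separate fit. None of these 5 tissues' mean levels overlapped between the groups, and neither did those of the release genes; those of the transmitter genes did. That the RNA was that of whole animals was taken from the labels and not from these markers.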

How the data were processed

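Expression was measured on Affymetrix single-colour arrays in 3 alg-1(-) and 3 wild type samples of whole larvae; per the labels' protocols, the RNA was extracted with Trizol and about 5 µg was labelled. The deposited log2 values, 1 for each probe set of an array, were made by the authors. The submitters' processing notes name Affymetrix Power Tools; its version, background correction and normalization are not stated there. That the scale is log2 was read from the values (3.14 to 14.9). Array medians were 6.01 to 6.05, so values were used as deposited.

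Of 22625 probe sets, 77 controls were left out. Symbols were those of the platform's annotation, with newer ones taken by gene ID from RefSeq (assembly WBcel235; 20701 probe sets matched), used for names and gene overlaps only. Of the 22548 probe sets tested, 20766 had 1 symbol, 887 several and 895 none. Listed genes whose symbol matched no probe set are outside the counts. Detection calls were not used. Precision is limited by the number of arrays.

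Mutant minus wild type was fitted with limma 3.58.1 in R 4.3.3 (lmFit and eBayes). Tests were two-sided, and p-values were adjusted over all probe sets tested by Benjamini-Hochberg, with 0.05 as the threshold. The fit was tested on simulated data. With 3 against 3 arrays the smallest p of an exact permutation test is 0.1. Whether the replicates came from separate cultures is not stated beyond the word independent, so p-values measure the spread between these samples.

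The members and lists were chosen with earlier results of these data known. Every member is named; from each other list up to 4 genes with the smallest p among those past the threshold are named. Lists are described by counts and medians, with no test of the list. The alternatives were quantile normalization, median centring, centring on the hybridization controls (9 probe sets), filters at the median and 25th percentile of signal, array weights, a robust prior with an intensity trend, no _s_at or _x_at probe sets, the mean of a gene's probe sets, blocking on replicate number, a threshold of 0.01, and each array left out in turn.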

Additional observations from a re-analysis of the deposited data

How the results depend on the processing

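Over 17 alternatives the 9 genes that rose gave 150 changes, 0 of them of the other sign. The threshold of 0.01, the robust prior, the block and the signal filters leave the size of a gene's change as it was. Part of this result was therefore fixed in advance. The genes unc-13, unc-2, egl-19, syd-2 and sng-1 passed in every alternative that measured them. The count of rises over the 34 genes (9 as deposited) was 14 with centring on the hybridization controls and 5 at a threshold of 0.01. It was 5 to 11 when single arrays were left out. Of all genes (14.4% as deposited), 20.6% rose with that centring, 9.66% at that threshold and 10.7% to 14.8% with arrays left out. With arrays left out, 14.4% to 21.3% of all genes fell. The release genes gave 5 rises at the threshold of 0.01 and 5 to 10 with arrays left out. Falls numbered 0 to 1 with arrays left out, the 1 being aex-3 without wild type replicate 2. The transmitter genes gave 2 rises with centring on the hybridization controls and 0 to 1 with arrays left out. The median over all 34 genes was 0.258 with that centring, 0.169 above the median signal and 0.156 without _s_at and _x_at probe sets. The release median was 0.238 with quantile normalization, 0.418 with that centring, 0.319 above the median signal, 0.234 with array weights, 0.244 with the mean over probe sets, and 0.247 to 0.302 with arrays left out. The transmitter median was 0.141 with that centring, 0.063 without _s_at and _x_at probe sets, and -0.022 to 0.057 with arrays left out. Where a filter removed probe sets, fewer genes were counted; elsewhere the cause was not tested.

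Members that had not passed changed sign in 34 results, none of them with an adjusted p under 0.05. With centring on the hybridization controls these were unc-64 (0.091), ric-19 (0.073), unc-17 (0.093), unc-25 (0.010), unc-46 (0.117), cat-1 (0.115), cat-2 (0.135), tdc-1 (0.033) and tbh-1 (0.086). With quantile normalization they were cho-1 (-0.014), unc-46 (0.003) and unc-119 (-0.033), with median centring cat-2 (0.007), and with array weights ric-19 (0.039), unc-17 (0.004) and cat-2 (0.039). They were aex-3 (0.135) without _s_at and _x_at probe sets and unc-46 (0.049) with the mean over probe sets. Leaving out arrays gave unc-64 -0.087 to 0.025, ric-19 -0.194 to 0.078, unc-17 -0.101 to 0.028, cho-1 -0.021 to 0.052, unc-46 -0.040 to 0.001, cat-1 -0.121 to 0.084, cat-2 -0.084 to 0.124 and unc-119 -0.057 to 0.094. Outside the members, the amine receptor gene ser-4, which had passed as higher, gave -0.324 without _s_at and _x_at probe sets. Of 663 counts and medians of the other lists under alternatives, 166 moved by more than the spread or by over 1.5 times.

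With replicate number as a block, 9 release genes and 0 transmitter genes rose, as without it. Deviations of arrays with the same number correlated at 0.21, 0.13 and 0.08, and wild type replicate 3 correlated best with alg-1(-) replicate 2 (0.10), so the numbers were not taken as pairs. Low signals limit what can be seen for rgef-1, tph-1 and many receptor genes.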
